A study of Mus musculus with 16 samples.

Results

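The genes described here are 9 members of the transforming growth factor-beta (TGF-beta) and activin system: the ligand genes Tgfb1, Tgfb2 and Tgfb3, the receptor genes Tgfbr1, Tgfbr2 and Tgfbr3, the matrix genes Ltbp2 and Thbs1, and Inhba. They were chosen by gene symbol from the count and FPKM tables, with no measured value in the rule. The choice was made with earlier results of these data known. They make up 9 of the 54532 genes listed. All 9 were found, and each had enough counts to enter all 6 comparisons between groups, with 141 counts for Inhba as the lowest and 19060 for Ltbp2 as the highest value of any of them in a library.

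TGF-beta ligands are made as dimers wrapped in their own propeptide and are stored in the matrix in this latent form, bound to latent TGF-beta binding proteins. Once released, for instance by integrins, proteases or thrombospondin 1, a ligand joins the type II receptor to the type I receptor, which phosphorylates Smad2 and Smad3. In the arterial wall this system is known for driving matrix synthesis and the contractile program of smooth muscle. Activins, dimers of the inhibin beta subunits, signal to the same Smads through receptors of their own and are blocked by follistatin.

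The samples were whole aortas of 16 C57BL/6J male mice, 1 RNA library per mouse and 4 mice per group, and the question was how dietary phosphorus and protein change the artery in chronic kidney disease. Mice of the 3 groups named 5/6 Nx had lost 5/6 of their kidney mass by surgery (nephrectomy) at 12 weeks of age and had recovered for 2 weeks, whereas Sham mice had no 5/6 Nx. Sham and 5/6 Nx-HPi-Lp mice ate the same diet with 2% phosphorus and 2.5% protein, 5/6 Nx-HPi-Hp mice ate 2% phosphorus with 18% protein, and 5/6 Nx-LPi-Lp mice ate 0.3% phosphorus with 2.5% protein. The feeding time is 30 days in the sample labels and 4 weeks in the methods of the study. No group was untouched by diet, since the Sham mice also received high phosphorus and low protein, and mice with intact kidneys on another diet were not analysed here. The tissue was bulk, so all cell types of the vessel and its surroundings were read together.

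Libraries held 13659525 to 57276915 counts. Mitochondrially encoded genes took 4.18% to 6.34% of the counts in Sham and 9.50% to 29.0% in the other groups. The vessel identity of the samples was checked with 6 smooth muscle genes fixed as markers (Myh11, Lmod1, Des, Mylk, Actg2 and Smtn), none of which was at 0 in any group. Their summed level, in CPM (counts scaled to library size), was 10299 to 10807 in Sham, 1203 to 2669 in 5/6 Nx-HPi-Lp, and 4220 to 10425 in 5/6 Nx-HPi-Hp and 4352 to 8879 in 5/6 Nx-LPi-Lp. Replicate 4 of 5/6 Nx-HPi-Hp stood apart within its group with 10425, against 4220 to 6509 in the other mice of the group. Sums of 6 sympathetic neuron markers reached 1392 CPM in replicate 1 and 1014 CPM in replicate 4 of 5/6 Nx-HPi-Lp, against 12.6 to 15.8 CPM in Sham, so the results below were also computed without both libraries. Heart muscle markers summed to 8057 CPM in replicate 2 of 5/6 Nx-LPi-Lp and to 954 and 486 CPM in replicates 1 and 2 of 5/6 Nx-HPi-Hp, against 22.5 to 149 CPM in the other 13 libraries. Without replicate 2 of 5/6 Nx-LPi-Lp, the 6 genes of interest that passed in that group against Sham, and the 3 that passed in 5/6 Nx-HPi-Lp against it, still passed.

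All 9 are protein-coding genes, located here on mm10 as in the deposited table. The ligand genes are Tgfb1 at chr7:25687002-25705077 (plus strand), Tgfb2 at chr1:186622792-186705989 (minus strand) and Tgfb3 at chr12:86056745-86079041 (minus strand). The receptor genes are Tgfbr1 at chr4:47353222-47414931 (plus strand), Tgfbr2 at chr9:116084293-116175360 (minus strand) and Tgfbr3 at chr5:107106570-107289629 (minus strand). The others are Ltbp2 at chr12:84783212-84876532 (minus strand), Thbs1 at chr2:118111876-118127133 (plus strand) and Inhba at chr13:16011851-16031621 (plus strand).

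The bases before the start of a gene are shown for Ltbp2, which was called against all 3 other groups, and, chosen after their values were seen, for Tgfb1 and Tgfb2, ligand genes that moved in opposite directions. The sequences are from RefSeq on GRCm38.p6, 5′ to 3′ on the strand of the gene, and all lie upstream of the coding gene and outside annotated exons of protein-coding genes. Capitals mark matches to the TATA box TATAAA and to the GC box GGGCGG on either strand. The table of such windows held 6 of the 9 genes, and Thbs1, Tgfb3 and Tgfbr3 were not among them.
Tgfb1, chr7:25686752-25687001, plus strand: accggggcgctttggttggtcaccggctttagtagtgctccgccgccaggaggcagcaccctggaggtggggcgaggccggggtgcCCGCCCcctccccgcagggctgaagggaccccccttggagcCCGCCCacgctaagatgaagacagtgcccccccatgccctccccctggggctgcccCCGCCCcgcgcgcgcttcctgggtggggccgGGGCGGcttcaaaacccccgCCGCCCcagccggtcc
Tgfb2, chr1:186705990-186706239, minus strand: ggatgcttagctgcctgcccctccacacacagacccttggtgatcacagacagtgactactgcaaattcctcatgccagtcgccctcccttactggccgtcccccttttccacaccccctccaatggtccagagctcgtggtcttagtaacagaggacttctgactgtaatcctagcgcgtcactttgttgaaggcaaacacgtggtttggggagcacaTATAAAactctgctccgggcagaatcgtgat
Ltbp2, chr12:84876533-84876741, minus strand, bases 250 to 42 before the RefSeq start: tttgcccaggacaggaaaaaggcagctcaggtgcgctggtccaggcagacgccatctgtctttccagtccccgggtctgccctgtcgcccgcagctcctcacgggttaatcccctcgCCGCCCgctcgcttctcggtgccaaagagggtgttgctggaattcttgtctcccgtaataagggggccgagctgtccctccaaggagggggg
The Tgfb1 window held 5 GC boxes and no TATA box, whereas the Tgfb2 window held 1 TATA box and no GC box. The Ltbp2 window held 2 GC boxes, 1 of them in the bases printed. In the 250 bases before the start, a GC box was present for 32.9% and a TATA box for 13.0% of 27025 genes. The CAGA box AGCCAGACA, the Smad palindrome GTCTAGAC and the AP-1 site TGANTCA, searched on both strands and present for 0.285%, 0.174% and 6.87% of genes, had no match in the windows of the 6 genes found. A match or its absence in this window is a description of the letters and was not tested against binding.

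Against Sham, the 5/6 Nx-HPi-Lp aorta had more Thbs1, Ltbp2 and Tgfb1 RNA and less Tgfb2, Tgfb3 and Tgfbr1 RNA. Against each of the other 5/6 Nx groups it had more Thbs1 and Ltbp2, and more Tgfb1 with a call at the threshold against 5/6 Nx-HPi-Hp, and none of the 9 genes was lower at the threshold. A gene was counted as changed at a Benjamini-Hochberg adjusted p of at most 0.05 over all genes tested in the quasi-likelihood test of edgeR, called the edgeR adjusted p below, and as a differentially expressed gene (DEG) where the fold was at least 2 as well. Against Sham, 2 of the 9 genes were DEGs that rose and 0 were DEGs that fell, where 15.0% of all genes tested rose and 7.18% fell as DEGs. At the adjusted p alone 3 rose and 3 fell, where 22.7% of all genes rose and 20.2% fell, and the groups did not overlap for 6 of the 9 genes and for 43.0% of all genes. Against 5/6 Nx-HPi-Hp, 2 rose and 0 fell as DEGs, with 5.01% and 3.11% of all genes. There, 3 rose and 0 fell at the adjusted p, with 7.09% and 5.95% of all genes, and 3 did not overlap, with 20.4% of all genes. Against 5/6 Nx-LPi-Lp, 2 rose and 0 fell as DEGs, with 7.90% and 3.98% of all genes. There, 3 rose and 0 fell at the adjusted p, with 11.1% and 8.96% of all genes, and 3 did not overlap, with 24.7% of all genes. The share of DEGs against Sham was near that of all genes and says nothing particular about the 9. These comparisons share the 5/6 Nx-HPi-Lp mice. Since the samples were bulk tissue, fewer cells of a type and less RNA per cell cannot be told apart.

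**Figure D1:**
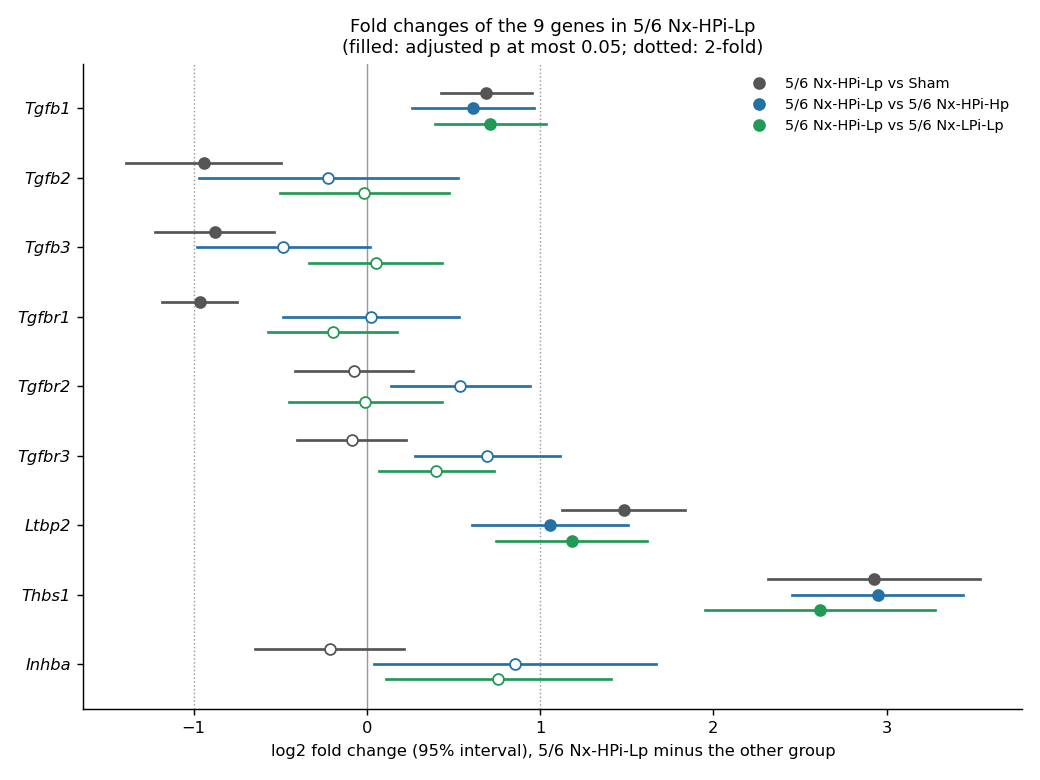
Log2 fold change of each of the 9 genes in 5/6 Nx-HPi-Lp against Sham, against 5/6 Nx-HPi-Hp and against 5/6 Nx-LPi-Lp, with 95% intervals from 4 mice per group. Filled points passed an adjusted p of 0.05, and the dotted lines mark a 2-fold change. Thbs1 and Ltbp2 lie to the right of the 2-fold line in all 3 comparisons, Tgfb1 lies between 0.61 and 0.71, and Tgfb2, Tgfb3 and Tgfbr1 are lower with a filled point against Sham alone, at -0.94, -0.88 and -0.96.

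Tgfb1 encodes the ligand made by many cell types, leukocytes and platelets among them. Its level was 63.7, 56.9, 71.5 and 63.8 CPM in the 4 Sham mice and 80.7, 121.4, 104.7 and 90.8 CPM in those of 5/6 Nx-HPi-Lp. It was 73.0, 61.8, 50.5 and 76.1 CPM in 5/6 Nx-HPi-Hp and 51.7, 61.3, 58.4 and 72.8 CPM in 5/6 Nx-LPi-Lp. All 4 mice of 5/6 Nx-HPi-Lp thus lay above all 12 others, and the other 3 groups overlapped each other. The log2 fold change was 0.69 (SE 0.13) against Sham, with an edgeR adjusted p of 0.00259. It was 0.71 (SE 0.16, edgeR adjusted p = 0.0172) against 5/6 Nx-LPi-Lp and 0.61 (SE 0.18, edgeR adjusted p = 0.0495) against 5/6 Nx-HPi-Hp. The last value sat at the threshold and passed in 5 of 12 alternatives, among them the unchanged fit with no fold threshold. It was lost with RLE (0.0521) or total-count scaling (0.0717), no count filter (0.0759), a replicate block (0.1495), limma on log2(FPKM + 1) or + 0.1 (0.0610 and 0.0781), and without both replicates 1 and 4 of 5/6 Nx-HPi-Lp (0.0666). It passed without replicate 1 of 5/6 Nx-HPi-Lp (0.0386) or replicate 4 of 5/6 Nx-HPi-Hp (0.0439). It did not pass without replicate 2, 3 or 4 of 5/6 Nx-HPi-Lp (0.126, 0.115 and 0.101) or without replicate 1, 2 or 3 of 5/6 Nx-HPi-Hp (0.07895, 0.126 and 0.126). Against 5/6 Nx-LPi-Lp the call was lost without replicate 3 of that group alone (edgeR adjusted p = 0.0508).

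Tgfb2 and Tgfb3 encode the other 2 TGF-beta ligands, and Tgfb2 differs in binding its receptors only weakly without the coreceptor betaglycan. Tgfb2 was at 39.7, 65.1, 41.7 and 39.6 CPM in Sham and at 14.2, 27.8, 25.8 and 25.3 CPM in 5/6 Nx-HPi-Lp. Tgfb3 was at 176, 183, 110 and 116 CPM in Sham and at 72.8, 78.0, 72.8 and 83.9 CPM in 5/6 Nx-HPi-Lp. For both ligands every 5/6 Nx-HPi-Lp mouse lay below every Sham mouse. Tgfb2 fell by 0.94 on the log2 scale (SE 0.23, edgeR adjusted p = 0.00837) and Tgfb3 by 0.88 (SE 0.18, edgeR adjusted p = 0.00306), both short of a 2-fold change. Against the other 5/6 Nx groups neither ligand passed, with Tgfb2 differences of -0.22 (95% interval -0.97 to 0.53) against 5/6 Nx-HPi-Hp and -0.02 (-0.50 to 0.47) against 5/6 Nx-LPi-Lp. For Tgfb3 the corresponding differences were -0.48 (-0.98 to 0.02) and 0.05 (-0.33 to 0.44).

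On the FPKM scale, which corrects for gene length and so lets ligands be compared, Tgfb3 was the highest of the 3 ligands in all 4 Sham mice, with 31.1 to 51.7 FPKM against 10.8 to 13.5 for Tgfb1 and 6.54 to 10.7 for Tgfb2. In 5/6 Nx-HPi-Lp the levels of Tgfb3 (21.5 to 24.9 FPKM) and Tgfb1 (16.4 to 24.7 FPKM) overlapped. Tgfb1 made up 20.5% ± 5.26 (SD, n = 4) of the summed ligand FPKM in Sham and 42.3% ± 3.80 in 5/6 Nx-HPi-Lp, with 27.6% ± 5.89 in 5/6 Nx-HPi-Hp and 32.3% ± 3.97 in 5/6 Nx-LPi-Lp. The lowest share in 5/6 Nx-HPi-Lp, 38.2%, was above the highest in any other group, 37.8% in 5/6 Nx-LPi-Lp, so that the gap was narrow. The share of Tgfb3 was 66.9% ± 5.76 in Sham and 49.2% ± 4.69 in 5/6 Nx-HPi-Lp. The sum of the 3 ligands was 61.3 ± 11.1 FPKM in Sham and 47.1 ± 5.02 FPKM in 5/6 Nx-HPi-Lp, with ranges of 51.5 to 73.2 and 41.0 to 53.3 FPKM that overlapped. These shares are descriptions with no test.

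**Figure D2:**
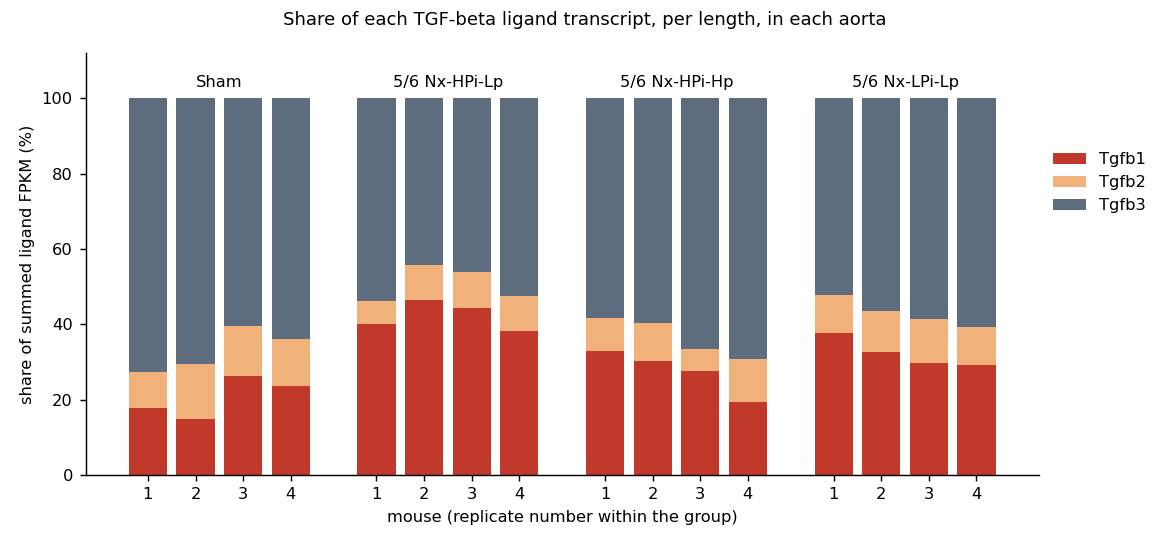
Share of Tgfb1, Tgfb2 and Tgfb3 in their summed FPKM (%), 1 bar per mouse and 4 mice per group. The Tgfb1 share runs from 14.8% to 26.2% in Sham and from 38.2% to 46.4% in 5/6 Nx-HPi-Lp.

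Tgfbr1 encodes the type I receptor kinase that phosphorylates the receptor Smads. It was at 111, 124, 128 and 110 CPM in Sham, at 58.1, 59.7, 66.6 and 49.3 CPM in 5/6 Nx-HPi-Lp, at 53.6, 46.2, 36.9 and 95.03 CPM in 5/6 Nx-HPi-Hp and at 49.1, 56.0, 78.4 and 85.5 CPM in 5/6 Nx-LPi-Lp. Every mouse with 5/6 Nx lay below every Sham mouse, and the 3 groups with 5/6 Nx overlapped. The log2 fold change against Sham was -0.96 (SE 0.11, edgeR adjusted p = 0.000150) in 5/6 Nx-HPi-Lp, -0.97 (SE 0.24, edgeR adjusted p = 0.0175) in 5/6 Nx-HPi-Hp and -0.73 (SE 0.17, edgeR adjusted p = 0.0114) in 5/6 Nx-LPi-Lp. All 3 passed without each library in turn, and none reached 2-fold with all libraries. Against 5/6 Nx-HPi-Hp and against 5/6 Nx-LPi-Lp the differences of 5/6 Nx-HPi-Lp were 0.02 (95% interval -0.48 to 0.53) and -0.20 (-0.57 to 0.18).

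Tgfbr2, the type II receptor that binds ligand first, was at 154, 191, 194 and 154 CPM in Sham and at 113, 209, 149 and 162 CPM in 5/6 Nx-HPi-Lp, with a difference of -0.07 (95% interval -0.42 to 0.27). Its lowest levels were in 5/6 Nx-HPi-Hp, at 126, 92.9, 94.3 and 125 CPM, all below Sham, whereas 5/6 Nx-LPi-Lp had 209, 121, 163 and 147 CPM. The log2 fold change of 5/6 Nx-HPi-Hp against Sham was -0.59 (SE 0.15, edgeR adjusted p = 0.0192), and it did not pass without replicate 2 or 3 of Sham (0.0573 and 0.0520). Between 5/6 Nx-HPi-Lp and 5/6 Nx-HPi-Hp the difference was 0.54 (95% interval 0.14 to 0.94), with an edgeR adjusted p of 0.106. The ratio of Tgfbr1 to Tgfbr2 FPKM was 0.862 ± 0.0440 (SD, n = 4) in Sham and 0.485 ± 0.138 in 5/6 Nx-HPi-Lp, and the ranges of 0.816 to 0.901 and 0.358 to 0.641 did not overlap. In 5/6 Nx-LPi-Lp it was 0.551 ± 0.183, with a range of 0.295 to 0.728 that did not overlap Sham either, and in 5/6 Nx-HPi-Hp it was 0.650 ± 0.210, with a range of 0.490 to 0.953 that did.

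Tgfbr3 encodes betaglycan, the coreceptor that presents ligand to the type II receptor. It was at 106, 101, 104 and 87.1 CPM in Sham, at 89.9, 105, 63.0 and 102 CPM in 5/6 Nx-HPi-Lp, at 72.5, 41.9, 49.3 and 60.5 CPM in 5/6 Nx-HPi-Hp and at 74.1, 67.5, 69.2 and 63.1 CPM in 5/6 Nx-LPi-Lp. All 8 mice of the last 2 groups lay below all Sham mice, while 3 of the 4 5/6 Nx-HPi-Lp mice lay within the Sham range. The log2 fold change against Sham was -0.76 (SE 0.17, edgeR adjusted p = 0.0125) in 5/6 Nx-HPi-Hp and -0.45 (SE 0.10, edgeR adjusted p = 0.00842) in 5/6 Nx-LPi-Lp, but -0.09 (95% interval -0.40 to 0.22) in 5/6 Nx-HPi-Lp. Directly compared, 5/6 Nx-HPi-Lp differed from 5/6 Nx-HPi-Hp by 0.69 (SE 0.21, edgeR adjusted p = 0.0580) and from 5/6 Nx-LPi-Lp by 0.40 (SE 0.17, edgeR adjusted p = 0.1199). Replicate 3 of 5/6 Nx-HPi-Lp was the lowest of its group at 63.0 CPM, and without it the edgeR adjusted p was 0.0441 and 0.0283. DESeq2 gave 0.0308 and a fit of all 16 libraries 0.00824 for the difference from 5/6 Nx-HPi-Hp, so whether it passed depended on the fit. In the same fit of all 16 libraries the difference of 5/6 Nx-LPi-Lp from Sham did not pass (edgeR adjusted p = 0.0503).

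**Figure D3:**
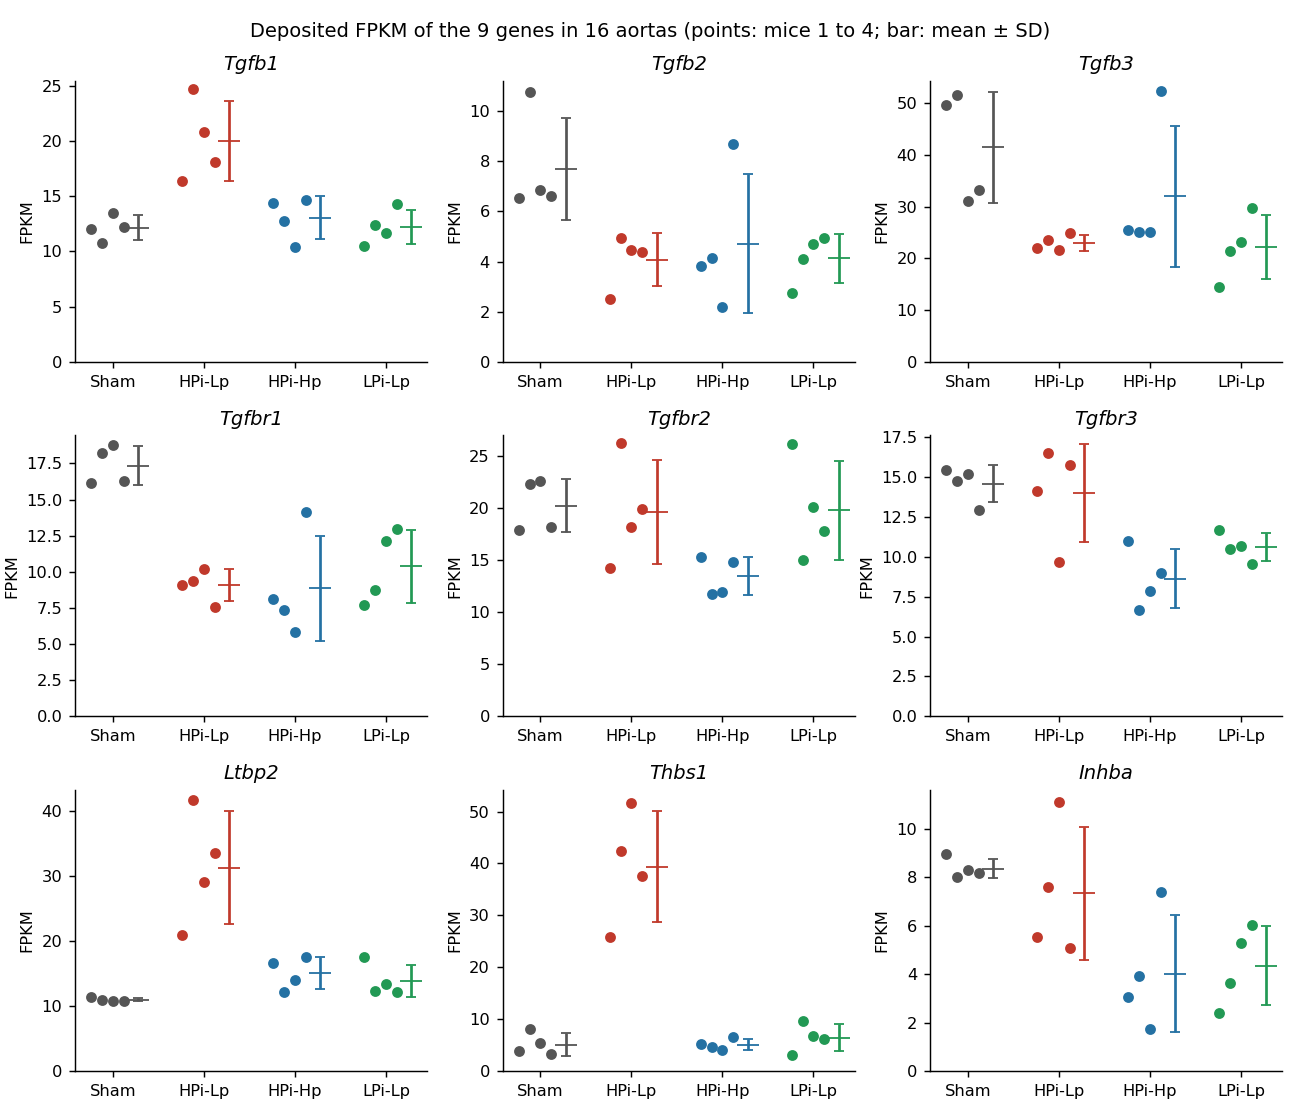
Deposited FPKM of the 9 genes in 16 aortas, 1 point per mouse in the order of its replicate number, with the mean and SD (n = 4) beside each group and every axis starting at 0. The HPi-Lp mice are the highest group for Tgfb1, Ltbp2 and Thbs1, and the Sham mice lie above every mouse with 5/6 Nx for Tgfbr1.

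Ltbp2 encodes a latent TGF-beta binding protein of elastic microfibrils that, unlike its relatives, is known not to bind latent TGF-beta itself. It was at 97.1, 93.7, 92.7 and 91.2 CPM in Sham and at 167, 333, 237 and 273 CPM in 5/6 Nx-HPi-Lp. It was at 137, 95.1, 110 and 147 CPM in 5/6 Nx-HPi-Hp and at 139, 98.5, 109 and 100 CPM in 5/6 Nx-LPi-Lp. The 5/6 Nx-HPi-Lp mice lay above all 12 others. The log2 fold change was 1.48 (SE 0.18, edgeR adjusted p = 0.000206) against Sham and 1.18 (SE 0.22, edgeR adjusted p = 0.00818) against 5/6 Nx-LPi-Lp. It was 1.06 (SE 0.23, edgeR adjusted p = 0.0185) against 5/6 Nx-HPi-Hp, a fold of 2.08 that was close to the 2-fold threshold. In that comparison the adjusted p rose to 0.0590 without replicate 4 of 5/6 Nx-HPi-Lp and to 0.0629 and 0.0525 without replicate 2 or 3 of 5/6 Nx-HPi-Hp, and the log2 fold change was 0.89 without replicate 2 of 5/6 Nx-HPi-Lp. Exons of Ltbp2 overlap those of D030025P21Rik on the opposite strand over 764 bases, and whether counting used strand is not given in the sources used here. That transcript had at most 1.69 CPM in any library.

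Thbs1 encodes thrombospondin 1, a matrix glycoprotein of platelets, smooth muscle and other cells that can activate latent TGF-beta and is itself induced by it. It had the largest fold of the 9 genes in each comparison of 5/6 Nx-HPi-Lp. Its level was 24.4, 50.9, 33.7 and 19.96 CPM in Sham, and 153, 251, 314 and 227 CPM in 5/6 Nx-HPi-Lp. It was 31.4, 26.8, 24.0 and 40.8 CPM in 5/6 Nx-HPi-Hp and 18.7, 57.1, 40.9 and 38.1 CPM in 5/6 Nx-LPi-Lp. The lowest 5/6 Nx-HPi-Lp mouse, at 153 CPM, was thus well above the highest of the 12 others, at 57.1 CPM. The fold was 7.60 against Sham (log2 2.93, SE 0.31, edgeR adjusted p = 0.000102), 7.72 against 5/6 Nx-HPi-Hp (log2 2.95, SE 0.25, edgeR adjusted p = 0.00105) and 6.14 against 5/6 Nx-LPi-Lp (log2 2.62, SE 0.34, edgeR adjusted p = 0.00208). Thbs1 stayed a DEG in all 3 comparisons without each library in turn. In FPKM, Thbs1 was the lowest of the 9 genes by mean in Sham (5.08 ± 2.15, SD, n = 4) and the highest in 5/6 Nx-HPi-Lp (39.4 ± 10.7).

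Inhba encodes the inhibin beta A subunit, which forms activin A. It was at 60.0, 53.6, 55.7 and 54.0 CPM in Sham, at 34.5, 47.4, 71.1 and 32.3 CPM in 5/6 Nx-HPi-Lp, at 19.6, 24.0, 10.6 and 48.8 CPM in 5/6 Nx-HPi-Hp and at 14.9, 23.0, 33.5 and 39.0 CPM in 5/6 Nx-LPi-Lp. The Sham values were tight, and those of the 5/6 Nx groups spread widely. The log2 fold change against Sham was -0.22 (95% interval -0.65 to 0.22) in 5/6 Nx-HPi-Lp, -0.93 (SE 0.24, edgeR adjusted p = 0.0186) in 5/6 Nx-LPi-Lp and -1.06 (SE 0.35, edgeR adjusted p = 0.0422) in 5/6 Nx-HPi-Hp. Inhba was thereby the single one of the 9 called in 5/6 Nx-HPi-Hp against Sham, where 2.75% of all genes fell as DEGs. That call passed without replicate 4 of 5/6 Nx-HPi-Hp (log2 -1.54, edgeR adjusted p = 0.000895) and in none of the other 7 fits that left out a library, where the edgeR adjusted p was 0.0574 to 0.0994. In 5/6 Nx-HPi-Lp against Sham, leaving out replicate 3 of 5/6 Nx-HPi-Lp gave -0.48 (edgeR adjusted p = 0.0306). Between 5/6 Nx-HPi-Lp and 5/6 Nx-HPi-Hp the difference was 0.86 (SE 0.42, edgeR adjusted p = 0.191), and without replicate 4 of 5/6 Nx-HPi-Hp it was 1.35 (edgeR adjusted p = 0.0357).

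The other groups were also compared with each other. In 5/6 Nx-HPi-Hp against Sham, 1 of the 9 genes rose and 4 fell at the adjusted p, where 17.5% of all genes rose and 13.9% fell. As DEGs 0 rose and 1 fell, where 9.41% and 2.75% of all genes did, and the groups did not overlap for 4 of the 9 and for 33.8% of all genes. In 5/6 Nx-LPi-Lp against Sham, 1 rose and 5 fell at the adjusted p, where 17.3% of all genes rose and 14.5% fell. None was a DEG, where 8.79% rose and 2.08% fell among all genes, and the groups did not overlap for 6 of the 9 and for 35.6% of all genes. Both comparisons share the Sham mice. The ligands Tgfb2 and Tgfb3 fell in 5/6 Nx-LPi-Lp by 0.88 each on the log2 scale (edgeR adjusted p = 0.0154 and 0.0207), and for Tgfb3 the call was lost without replicate 1 or 2 of Sham (0.0581 and 0.0643). In a fit of all 16 libraries Tgfb2 and Inhba did not pass in 5/6 Nx-LPi-Lp (edgeR adjusted p = 0.0667 and 0.07845). In 5/6 Nx-HPi-Hp, Tgfb2 and Tgfb3 were at -0.70 and -0.38 and did not pass (edgeR adjusted p = 0.149 and 0.316). Without replicate 4 of that group these 2 ligands were at -1.19 and -0.73 (edgeR adjusted p = 0.00461 and 0.0125). Ltbp2 was higher than in Sham by 0.45 in 5/6 Nx-HPi-Hp (edgeR adjusted p = 0.0390) and by 0.35 in 5/6 Nx-LPi-Lp (edgeR adjusted p = 0.0486). Each of these 2 small differences missed the threshold in 6 of the 8 fits that left out a library, all 4 Sham mice and replicates 1 and 3 of the other group, with edgeR adjusted p of 0.0571 to 0.0994 and 0.0953 to 0.111. Of 11 alternatives, Ltbp2 passed in 6 for 5/6 Nx-HPi-Hp and in 2 for 5/6 Nx-LPi-Lp, the unchanged fit with no fold threshold among them. Its log2 fold change went down to 0.26 and 0.10 under these alternatives. Tgfb1 and Thbs1 did not pass in either comparison, with Tgfb1 at 0.10 and 0.02 and Thbs1 at 0.0027 and 0.36. Between 5/6 Nx-LPi-Lp and 5/6 Nx-HPi-Hp none of the 9 genes passed, and neither did any of the 15850 genes tested (0%). No member's groups failed to overlap there, with 5.15% of all genes. There, 1420 of all genes and 1 of the 9, Tgfbr2, had an unadjusted edgeR p under 0.05, while DESeq2 called 79 genes and limma on log2(FPKM + 1) called 0.

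Within the 5/6 Nx-HPi-Hp group, Tgfb2, Tgfb3, Tgfbr1 and Inhba were all highest in replicate 4, at 51.7, 183, 95.03 and 48.8 CPM, against at most 23.1, 86.8, 53.6 and 24.0 CPM in the other 3 mice. Tgfb1, Ltbp2 and Thbs1 were highest in the same mouse, at 76.1, 147 and 40.8 CPM, with narrower gaps to at most 73.0, 137 and 31.4 CPM. Replicate 4 also had the highest smooth muscle marker sum of the group. Its sum of 6 adipocyte markers was the lowest, at 904 CPM against 1414 to 4094 CPM in the other mice. In 5/6 Nx-LPi-Lp, Tgfb2, Tgfb3, Tgfbr1, Inhba and the smooth muscle sum were all highest in replicate 4 and lowest in replicate 1. The adipocyte sum there was highest in replicate 1, at 5333 CPM, and lowest in replicate 2, at 1575 CPM. In 5/6 Nx-HPi-Lp, where the smooth muscle sums were lowest, Tgfb2 was lowest in replicate 1, the mouse with the highest smooth muscle sum of the group. Tgfbr1 and Inhba were lowest in replicate 4, at 49.3 and 32.3 CPM, the mouse with the lowest sum of the group. Tgfb3 was highest in that mouse, at 83.9 CPM. Between groups, Tgfb1, Ltbp2 and Thbs1 were highest in 5/6 Nx-HPi-Lp. That group had the lowest smooth muscle sums and the highest median macrophage, platelet and fibroblast sums. Within 5/6 Nx-HPi-Lp, Tgfb1 and Ltbp2 were highest in replicate 2 and lowest in replicate 1, as were the macrophage, platelet and fibroblast sums. Thbs1 was lowest in replicate 1 too, but highest in replicate 3. Within 5/6 Nx-HPi-Hp, replicate 4 had neither the highest macrophage nor the highest platelet sum, but it had the highest fibroblast sum, 1138 CPM. In 5/6 Nx-LPi-Lp, Tgfb1 was highest in replicate 4, at 72.8 CPM, with the lowest macrophage, platelet and fibroblast sums of the group. In that group Thbs1 was highest in replicate 2, where these sums were highest. The 6 macrophage markers summed to 380 to 1165 CPM in 5/6 Nx-HPi-Lp against 135 to 185 CPM in Sham and at most 388 CPM in the other groups, and the 6 platelet and megakaryocyte markers to 44.8 to 88.4 CPM against 19.0 to 36.8 CPM in Sham and at most 41.0 CPM in the others, with Gp1bb at 0 in 5/6 Nx-HPi-Lp. Fibroblast markers summed to 731 to 2294 CPM in 5/6 Nx-HPi-Lp and 695 to 1185 CPM in Sham. They summed to 585 to 1138 CPM in 5/6 Nx-HPi-Hp and 537 to 758 CPM in 5/6 Nx-LPi-Lp. Adipocyte markers summed to 340 to 743 CPM in Sham and to at least 904 CPM in every mouse with 5/6 Nx. The part of these cell types in the changes of the 9 genes was not tested. Without replicates 1 and 4 of 5/6 Nx-HPi-Lp, the mice with the high neuron sums, the differences from Sham were 0.88 for Tgfb1, 1.67 for Ltbp2 and 3.19 for Thbs1 on the log2 scale, no smaller than with them.

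**Figure D4:**
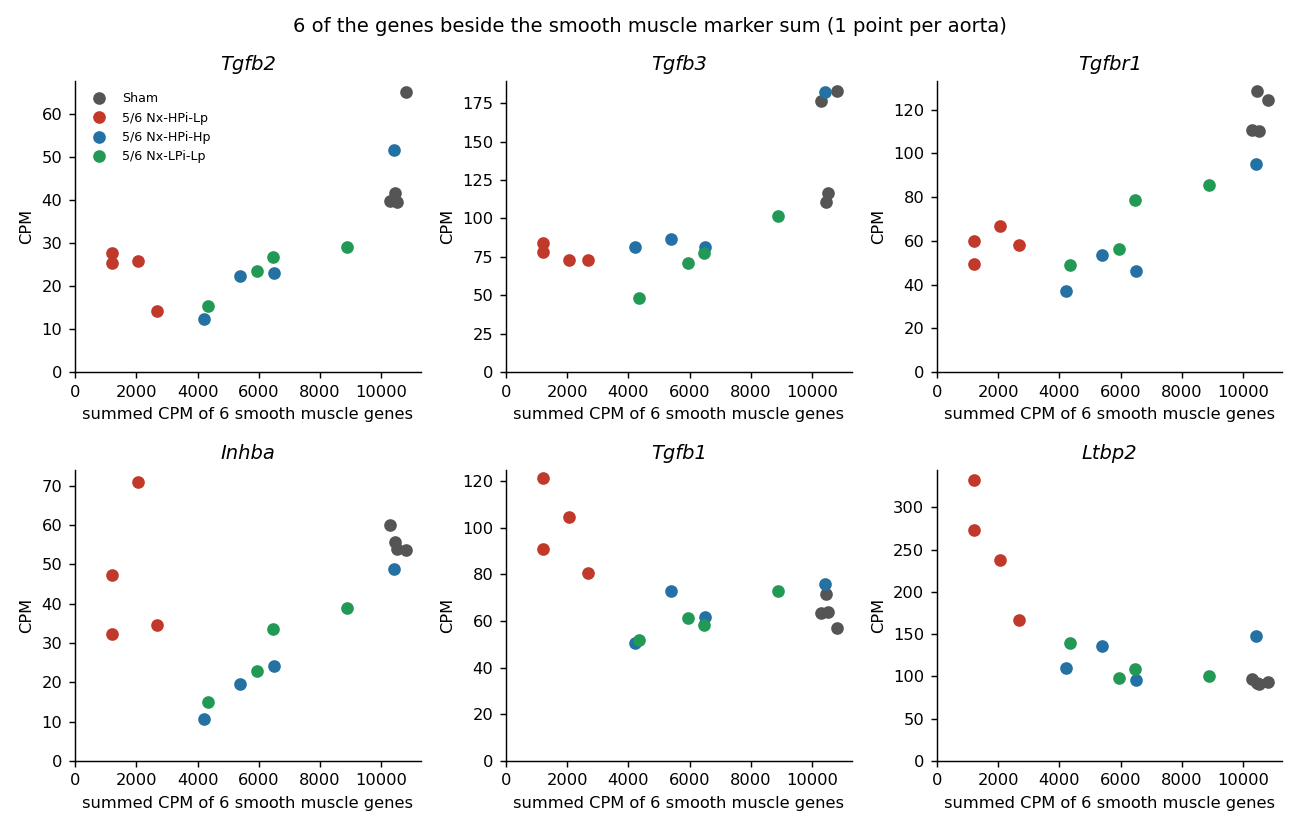
Levels of 6 of the genes in CPM against the summed CPM of 6 smooth muscle markers, 1 point per mouse, colored by group, both axes starting at 0. In 5/6 Nx-HPi-Hp and in 5/6 Nx-LPi-Lp the mice with higher sums, up to 10425 and 8879, have more Inhba. Tgfbr1 follows the same order in 5/6 Nx-LPi-Lp. In 5/6 Nx-HPi-Hp, replicate 2 has a higher sum than replicate 1 (6509 against 5379) but less Tgfbr1 (46.2 against 53.6 CPM). The 5/6 Nx-HPi-Lp mice sit between 1203 and 2669 with the highest Ltbp2 and Tgfb1.

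Other genes of the pathway were described in 5 lists, given by how many of the genes tested were DEGs in 5/6 Nx-HPi-Lp. The lists were chosen with earlier results of these data known, so counts beside the share of all genes are descriptions. In the list of latency and activation genes, 5 rose and 5 fell among 23 against Sham, where 15.0% of all genes rose and 7.18% fell, with a median log2 fold change of -0.15, while the median of all genes was -0.0027. Of the TGF-beta binding relatives of Ltbp2, Ltbp4 fell from 1857 ± 148 CPM in Sham (SD, n = 4) to 484 ± 117 CPM, a log2 change of -1.88, and it was called against 5/6 Nx-HPi-Hp (-1.30) and 5/6 Nx-LPi-Lp (-1.24) too. Itgb5, an integrin subunit of a latent TGF-beta receptor, fell by 1.80. Mmp2 and Mmp14, a gelatinase and the membrane protease that activates it, rose by 2.52 and 2.44 and were called against all 3 groups. Fbn2, a microfibril protein of growing tissue, had 13 to 477 counts in 5/6 Nx-HPi-Lp libraries, 0 to 5 in Sham, 0 to 2 in 5/6 Nx-HPi-Hp and 0 to 7 in 5/6 Nx-LPi-Lp. It is counted as called in all 3, but its counts elsewhere were at or near the floor of 3. It thus entered the tests through its 5/6 Nx-HPi-Lp counts. With at least 10 counts required in every library, and in both limma fits, Fbn2 was not tested. With a replicate block its edgeR adjusted p was 0.0727 against 5/6 Nx-HPi-Hp and 0.0566 against 5/6 Nx-LPi-Lp. Against 5/6 Nx-HPi-Hp 5 rose and 1 fell of 23, with 5.01% and 3.11% of all genes. Against 5/6 Nx-LPi-Lp 8 rose and 1 fell of 23, with 7.90% and 3.98% of all genes. These percentages of all genes apply to the counts of the other 4 lists as well.

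Among the activin genes, 3 rose and 1 fell of 9 tested against Sham, with a median of 0.40, and 1 and 2 rose against 5/6 Nx-HPi-Hp and against 5/6 Nx-LPi-Lp with none lower. Fst, the activin-binding follistatin, rose against all 3 (1.76, 1.38 and 1.28), from 6.96 ± 1.34 CPM in Sham to 22.7 ± 4.30 CPM (SD, n = 4). Without replicates 1 and 4 of 5/6 Nx-HPi-Lp its edgeR adjusted p against 5/6 Nx-HPi-Hp was 0.0563. Fstl3, a relative of follistatin, moved the other way against Sham (-1.72), and 47.3% of its exon bases lie opposite exons of Prss57, which had at most 0.795 CPM. Acvr1c, the type I receptor ALK7 known from fat cells, rose by 2.80 against Sham, and 6 adipocyte markers summed to 1355 to 2268 CPM in 5/6 Nx-HPi-Lp against 340 to 743 CPM in Sham. It did not differ at the threshold from the other 5/6 Nx groups (-0.15 and 0.18), whose adipocyte sums were 904 to 4094 and 1575 to 5333 CPM, and the part of fat in its change was not tested. The Smad transducers and regulators included no gene that rose as a DEG in any of the 3 comparisons. Against Sham, 2 of 19 fell, Bambi, a decoy receptor, by 1.83 and the inhibitory Smad7 by 1.21, both of which are themselves induced by TGF-beta, with a list median of -0.22. With 7.18% of all genes falling, 2 of 19 is near the background. At the adjusted p, 3 of the 19 rose and 7 fell against Sham, where 22.7% of all genes rose and 20.2% fell. None of the 18 tested against 5/6 Nx-HPi-Hp or 5/6 Nx-LPi-Lp was a DEG. At the adjusted p 3 rose and 0 fell in the first, where 7.09% of all genes rose and 5.95% fell. In the second 1 rose and 2 fell, where 11.1% of all genes rose and 8.96% fell.

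The targets divided. Of 26 genes known to be inducible by TGF-beta, 11 rose and 2 fell against Sham, with a median of 0.77, while 10 rose and 1 fell against 5/6 Nx-HPi-Hp and 12 rose and 1 fell against 5/6 Nx-LPi-Lp. All genes that rose as DEGs made up 15.0%, 5.01% and 7.90% in these comparisons. The 10 against 5/6 Nx-HPi-Hp became 5 without any 1 of replicates 2, 3 and 4 of 5/6 Nx-HPi-Lp or replicates 1, 2 and 3 of 5/6 Nx-HPi-Hp, and 3 with a replicate block. Cthrc1, a secreted protein of activated fibroblasts, rose by 5.69, 5.66 and 5.94 on the log2 scale, and Timp1, a metalloproteinase inhibitor, by 4.77, 4.31 and 4.90. The large folds of Cthrc1 start from low counts, at most 27 in any Sham library. With at least 10 counts required in every library, Cthrc1 was not tested against 5/6 Nx-HPi-Hp or 5/6 Nx-LPi-Lp. Col1a1, Col1a2 and Col3a1, the fibrillar collagen chains, Snai1, a transcription factor, and Il11, a cytokine, were also called in all 3 comparisons. Il11 had at most 14 counts in any Sham library, and that count filter removed it from all 3. Against 5/6 Nx-HPi-Hp, however, Col1a1, Col1a2 and Il11 each passed in 2 of the 8 fits that left out a library, the fit without replicate 1 of 5/6 Nx-HPi-Lp and 1 without a 5/6 Nx-HPi-Hp mouse (replicate 4 for the collagens and 2 for Il11). Col1a2 was at 0.93 against Sham without replicate 2 of 5/6 Nx-HPi-Lp. Cdkn1a, a cell cycle inhibitor, was called in all 3 but sat at the fold threshold against Sham (1.01), and fell under it or missed the adjusted p without replicate 3 of 5/6 Nx-HPi-Lp (0.72) or replicate 3 or 4 of Sham (edgeR adjusted p = 0.0585 and 0.0604). Nox4, an NADPH oxidase of smooth muscle, and Tgfb1i1, a coactivator in smooth muscle, fell against Sham by 2.18 and 1.33. Ccn2 (-0.42, listed under the older symbol Ctgf), named after its values were seen because it is widely used as a TGF-beta readout, was not a DEG against Sham.

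All 8 contractile genes fell against Sham as DEGs, with a median of -2.13, and 5 of 8 fell against 5/6 Nx-HPi-Hp and 7 of 8 against 5/6 Nx-LPi-Lp, where 7.18%, 3.11% and 3.98% of all genes fell. Cnn1, calponin of smooth muscle, was lower by 2.84, 2.16 and 2.01 on the log2 scale in the 3 comparisons, and Acta2, smooth muscle actin, fell by 2.80 against Sham and was at -1.70 against 5/6 Nx-HPi-Hp without passing (edgeR adjusted p = 0.0619). Tpm1, Tpm2, Flna and Tagln, genes of the actin cytoskeleton, were also called in all 3. Counts of Tagln are uncertain, since 62.4% of its exon bases lie opposite exons of Gm48529, which had at most 36.1 CPM, and 5.43% opposite Pcsk7. Against 5/6 Nx-HPi-Hp the number called was 0 without replicate 4 of 5/6 Nx-HPi-Lp, 2 without its replicate 2 or 3 or without replicate 2 of 5/6 Nx-HPi-Hp, and 0 with a replicate block. Against 5/6 Nx-LPi-Lp it was 3 without replicate 4 of 5/6 Nx-HPi-Lp or with a replicate block, and 4 without replicate 3 or 4 of 5/6 Nx-LPi-Lp. The smooth muscle marker sums given above were lowest in 5/6 Nx-HPi-Lp as well. Whether the contractile genes moved with these sums from mouse to mouse was not tested. Across the 5 lists, the rule singled out 26 genes, of which 24 stayed DEGs against Sham in all 8 fits that left out a library, against 9 of the 19 called against 5/6 Nx-HPi-Hp and 16 of the 20 called against 5/6 Nx-LPi-Lp.

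**Figure D5:**
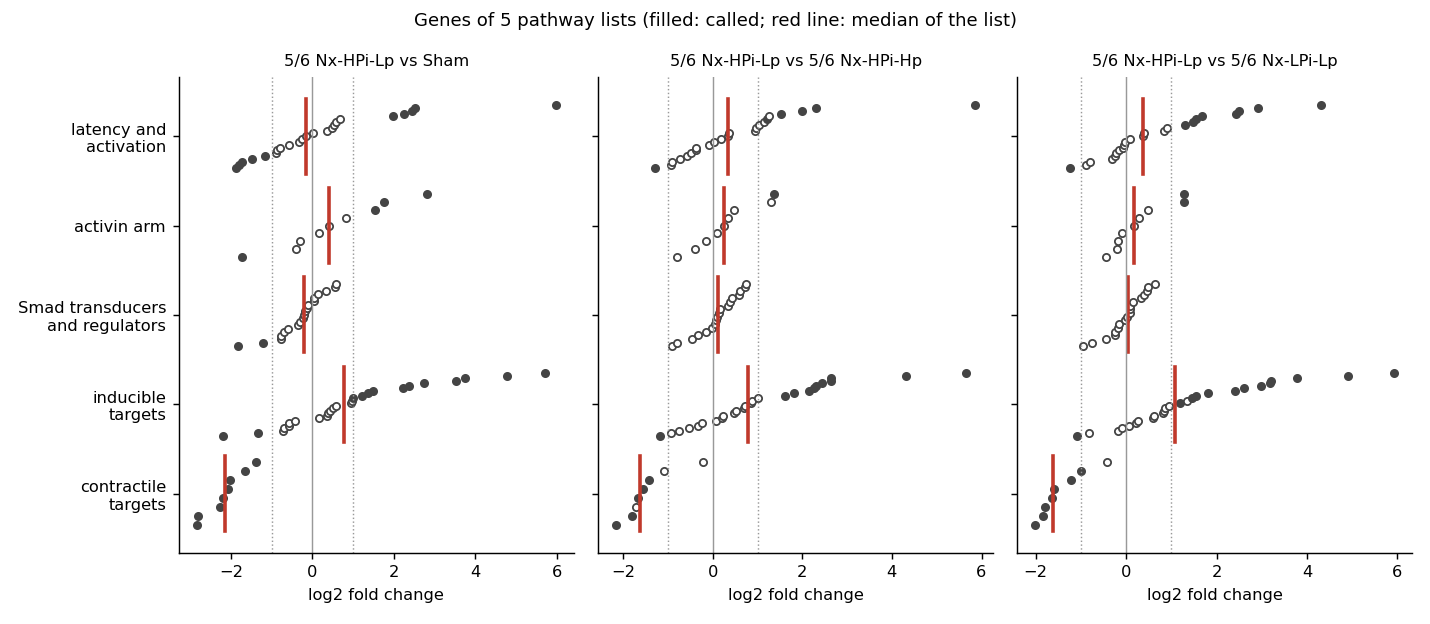
Log2 fold change of every gene tested in the 5 pathway lists, for 5/6 Nx-HPi-Lp against Sham, against 5/6 Nx-HPi-Hp and against 5/6 Nx-LPi-Lp. Filled points are DEGs, red lines are list medians and dotted lines mark a 2-fold change. The inducible targets have medians of 0.77, 0.78 and 1.07, and the contractile targets -2.13, -1.61 and -1.62.

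The genes whose pattern over the 16 libraries was closest to Ltbp2 and Thbs1 were found among 13593 protein-coding genes by the root mean square difference of log2(CPM + 1) after centering each gene on its own mean. For Ltbp2 they were Gpsm3, Vmp1 and Oaf, at differences of 0.19, 0.21 and 0.21, where Ltbp2 itself varied by 0.58 around its mean. For Thbs1 they were Dclk1, Clec4d and Plek, at 0.41, 0.43 and 0.45, where Thbs1 varied by 1.29. All 6 had their highest group mean in 5/6 Nx-HPi-Lp, for example 168.8 CPM for Vmp1 against 56.8 CPM in Sham, and 39.9 CPM for Dclk1 against 3.75 CPM in Sham. They were chosen for likeness to Ltbp2 and Thbs1, which are highest there, over the same 16 libraries. Their high means follow from that choice and are no separate result.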

How the data were processed

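Whole aortas of 16 mice were sequenced, 1 library per mouse. After read cleaning by the authors, HISAT2 placed reads on mm10 and featureCounts 1.5.0-p3 gave the counts per gene, with builds and versions as in the submitters' processing notes. Strand and multi-mapping options are not given in the sources used here. The authors deposited whole-number counts for 54532 genes, without normalization, and FPKM values that they scaled to gene length and also between libraries. Library totals of 13659525 to 57276915 counts bound the precision, and counts of 3 or fewer were treated as the floor.

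The test was that of edgeR 4.0.16 in R 4.3.3 (filterByExpr, TMM scaling, glmQLFit and glmQLFTest) on the 8 libraries of each pair of groups, with Benjamini-Hochberg adjustment over all genes tested. SE was the absolute log2 fold change divided by the square root of F, and 95% intervals assume normal errors. Levels within a gene are CPM after TMM scaling of the 16 libraries, and levels between genes are deposited FPKM. Alternatives used limma 3.58.1, DESeq2 1.42.0, RLE or total-count scaling, other count filters, all 16 libraries, a replicate block, no fold threshold, mitochondrially encoded genes left out, and each library left out in turn. Leaving out both replicates 1 and 4 of 5/6 Nx-HPi-Lp was added after the data were seen. The edgeR fit was tested on simulated data. Groups were taken from the labels. P-values cover the spread between mice.

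The members and the gene and marker lists were chosen with earlier results of these data known. Besides the members, the text names from each pathway list the 2 genes that rose and the 2 that fell most among DEGs against Sham, and any gene called in all 3 comparisons of 5/6 Nx-HPi-Lp. Gene coordinates were the same in GENCODE vM21 for all 9 members. Figures were drawn with matplotlib 3.10.9.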

Additional observations from a re-analysis of the deposited data

Results flagged for a closer look

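Within groups of 4 mice, 36 sets of values (9 genes in 4 groups) were checked for a mouse whose gap to its nearest neighbor took up most of the range, and 2 exceeded Dixon's 95% critical value, where chance gives about 1 in 20. Tgfb2 was 65.1 CPM in replicate 2 of Sham, against 39.6 to 41.7 CPM in the other Sham mice. Tgfb3 was 182.6 CPM in replicate 4 of 5/6 Nx-HPi-Hp, against 81.6 to 86.8 CPM in the other mice of that group. The latter is also the mouse with the highest smooth muscle and the lowest adipocyte marker sum of its group. The part of these sums in its Tgfb3 level was not tested.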

How the results depend on the processing

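Against Sham, 6 of the 9 genes (Tgfb1, Tgfb2, Tgfb3, Tgfbr1, Ltbp2 and Thbs1) kept their direction and passed in 5/6 Nx-HPi-Lp under all 12 alternatives and without each library, and Thbs1 did so in all 3 comparisons. The alternative with no fold threshold kept the same fit and could not change an adjusted p. Total-count scaling moved the median log2 fold change of all genes against Sham by -0.14 in 5/6 Nx-HPi-Lp, -0.21 in 5/6 Nx-HPi-Hp and -0.24 in 5/6 Nx-LPi-Lp, and brought the DEGs among the 9 that were lower to 3, 2 and 3, from 0, 1 and 0. With no count filter they were 1 and 2 in the first 2 of these comparisons. With no fold threshold 3 were lower in 5/6 Nx-HPi-Lp, and 1 was higher in each of the others with 4 and 5 lower. With limma on log2(FPKM + 0.1) 2 and 1 were lower in 5/6 Nx-HPi-Hp and in 5/6 Nx-LPi-Lp. Against 5/6 Nx-HPi-Hp, 1 gene in place of 2 was higher with limma on log2(FPKM + 1), where Ltbp2 was at 0.98. Without each library in turn the genes lower against Sham numbered 0 to 2 in 5/6 Nx-HPi-Lp, 0 to 3 in 5/6 Nx-HPi-Hp and 0 to 2 in 5/6 Nx-LPi-Lp, and those higher against 5/6 Nx-HPi-Hp 1 to 3. The causes were not tested.

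Replicate numbers did not pair mice by the check used, with correlations of deviations from -0.299 to 0.566 between same-numbered mice. A replicate block gave 1 gene higher against 5/6 Nx-HPi-Hp, with Ltbp2 at an edgeR adjusted p of 0.0874 and Tgfb1 at 0.1495, and 2 and 1 lower against Sham in 5/6 Nx-HPi-Hp and in 5/6 Nx-LPi-Lp.

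The changes of direction were in differences that did not pass with all libraries. With replicates 1 and 4 of 5/6 Nx-HPi-Lp left out, Tgfbr2 (0.11) and Inhba (0.14) against Sham and Tgfb2 (0.19) and Tgfbr2 (0.18) against 5/6 Nx-LPi-Lp turned positive. Against 5/6 Nx-LPi-Lp they were 0.029 and 0.054 under total-count scaling and 0.0325 and 0.045 without mitochondrially encoded genes. Tgfbr1 was -0.0092 against 5/6 Nx-HPi-Hp with all 16 libraries. In 5/6 Nx-HPi-Hp against Sham, Tgfb1 was -0.10 and Thbs1 -0.19 under total-count scaling, and Thbs1 was -0.014 with DESeq2, -0.054 with no filter and -0.0038 without mitochondrially encoded genes. In 5/6 Nx-LPi-Lp against Sham, Tgfb1 was -0.21 under total-count scaling, -0.035 with no filter and -0.011 with all 16 libraries. Without each library in turn, 5/6 Nx-HPi-Lp ranged from -0.23 to 0.069 for Tgfbr2 and -0.16 to 0.0655 for Tgfbr3 against Sham, from -0.15 to 0.35 for Tgfbr1 and -0.48 to 0.27 for Tgfb2 against 5/6 Nx-HPi-Hp, and from -0.19 to 0.17 for Tgfb2, -0.19 to 0.13 for Tgfbr2 and -0.13 to 0.25 for Tgfb3 against 5/6 Nx-LPi-Lp. The other groups ranged from -0.19 to 0.29 for Thbs1 in 5/6 Nx-HPi-Hp against Sham, from -0.18 to 0.081 for Tgfbr2 and -0.065 to 0.089 for Tgfb1 in 5/6 Nx-LPi-Lp against Sham, and from -0.61 to 0.13 for Inhba and -0.30 to 0.42 for Tgfb2 between 5/6 Nx-LPi-Lp and 5/6 Nx-HPi-Hp.

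The number of DEGs among all genes against 5/6 Nx-HPi-Hp ran from 255 to 1266 higher and from 116 to 964 lower over the alternatives, and that of contractile genes lower from 0 to 7.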
